A study of Mus musculus with 7 samples.

Results

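These data describe how mouse embryonic fibroblasts (MEFs) under endoplasmic reticulum (ER) stress from thapsigargin differed in expression from untreated MEFs, in genes other than growth factors. The genes compared averaged 2 TPM or more over 7 RNA-seq libraries and have a symbol that does not start with Gm, Mir, Snor or mt-T and does not hold -ps or -rs. This left 11627 of 49382 genes, called members here. Of these, 70 are growth factors, which are counted among the members and not described.

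The 7 libraries came from wild-type MEFs, primary cultures from minced embryos of E13.5 to E14.4 whose head and red tissue (fetal liver included) had been discarded, used at passages 3 to 7. These ages and passages are those of the labels, and the study's methods give slightly different ranges and describe a sort against macrophage markers that the labels do not mention. There was 1 library from control cells and 1 each from cells without glucose, without glutamine, or at 0.1% oxygen (hypoxia) for 10 hours, with 1 μM thapsigargin for 10 hours (ER stress), with 100 mM added NaCl for 3 hours (osmotic stress) or with 10 μM sodium arsenite for 3 hours (oxidative stress). All cells had been cultured overnight in complete DMEM before treatment, and no time is given for the control. The values are TPM, a unit in which all transcripts of a library sum to 1000000, added up by gene.

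Each condition had 1 library, so no difference can be set against the spread between cultures and no p-value is given. TPM keeps no read count, and the sequencing depth is unknown. A change is the difference in log2(TPM + 1) between ER stress and control, a scale that understates the change of genes near or below 1 TPM. "Rose" and "fell" stand for changes of more than 2-fold on that scale, which is a rule of size and no test. TPM is a share of the library, so that a rise of some genes lowers the values of the others. In bulk RNA fewer cells of a kind and less RNA per cell cannot be told apart.

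Thapsigargin blocks SERCA, the pump that fills the ER with calcium, and chaperones that need calcium then fail to fold their clients. Unfolded protein in the ER is sensed by IRE1, which splices Xbp1 mRNA, by ATF6, which is cut in the Golgi to release a transcription factor, and by PERK, which phosphorylates eIF2α and so lowers protein synthesis while favouring translation of ATF4. XBP1 and ATF6 act on genes of ER folding, degradation and transport, and ATF4 and CHOP (Ddit3) on genes of amino acid supply and stress feedback. Fibroblasts are heavy users of this machinery, since collagen and other matrix proteins pass through the ER.

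The marker genes of the treatment separated the library from the rest. Hspa5, which encodes the ER chaperone BiP (chromosome 2, 34771970 to 34777547, GRCm38), stood at 12611 TPM under thapsigargin. In the other 6 libraries it stood at 1165 (control), 1689 (glucose depletion), 943 (glutamine depletion), 1034 (osmotic stress), 784 (oxidative stress) and 1224 TPM (hypoxia). Sdf2l1, a partner of ER chaperones (chromosome 16, 17130138 to 17132383), was at 598 TPM against 12.1 to 60.8 TPM elsewhere, and Ddit3 (chromosome 10, 127290774 to 127296288) at 1870 TPM against 48.9 to 208 TPM. No other library came near the ER stress library for any of these 3 genes. All 10 fibroblast markers were members, and their summed TPM was 6462 under thapsigargin and 12854 to 15898 in the other libraries, with Col3a1, Lum, Pdgfrb and S100a4 below the control by more than 2-fold. The 12 leukocyte markers summed to between 8.61 and 17.4 TPM per library, the 9 endothelial ones to between 9.88 and 19.5 TPM, and the 8 erythroid ones to at most 1.13 TPM, with Ptprc, Adgre1, Cdh5, Epcam, Cdh1, Myod1 and Sox10 under 1 TPM in every library. Among the neural markers Tubb3, a tubulin, rose to 127 TPM from 26 TPM in the control while Stmn2 did not pass 2-fold. Of the 2 neural markers that are members, 1 was higher and 1 lower than in the control, the lower with a change of -0.39. Among the muscle markers Acta1 and Des fell. Summed levels over the libraries ran from 52.5 to 152 TPM for the 9 neural markers, from 53.7 to 189 TPM for the 10 muscle markers and from 41.6 to 160 TPM for the 9 epithelial markers, with the ER stress library highest for the neural and lowest for the muscle ones. The part of other cell types in the results was not tested.

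Of the 11627 members, 846 (7.28%) rose and 1159 (9.97%) fell, and the median change over all members was 0.01. Past 4-fold 148 rose and 150 fell, and past 8-fold 48 and 27. The genes that rose made up 3.71% of the control library and 12.8% of the ER stress library, and those that fell went from 10.2% to 3.53%. These shares follow from how the genes were counted. In 788 of the 846 that rose, the ER stress value was also above those of the 5 other stress libraries, and in 1059 of the 1159 that fell it was below them. It stood above all other libraries in 34.6% of all members and below all in 25.1%. Genes that rose or fell were picked by their ER stress value, so the 788 and 1059 are no separate evidence. Over all members, the ER stress library was more than 2-fold above the highest of the other 6 in 365 (3.14%) and more than 2-fold below the lowest in 425 (3.66%). The same counts were 36 above and 256 below for osmotic stress, 103 and 5 for hypoxia, and at most 16 and 12 for each of the other libraries. Just outside the 2-fold rule were Rab11fip5 (0.9994) and Pdpn (-0.9998), and just inside were Slc39a14 (1.0003) and Hpcal1 (-1.0001).

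**Figure D1:**
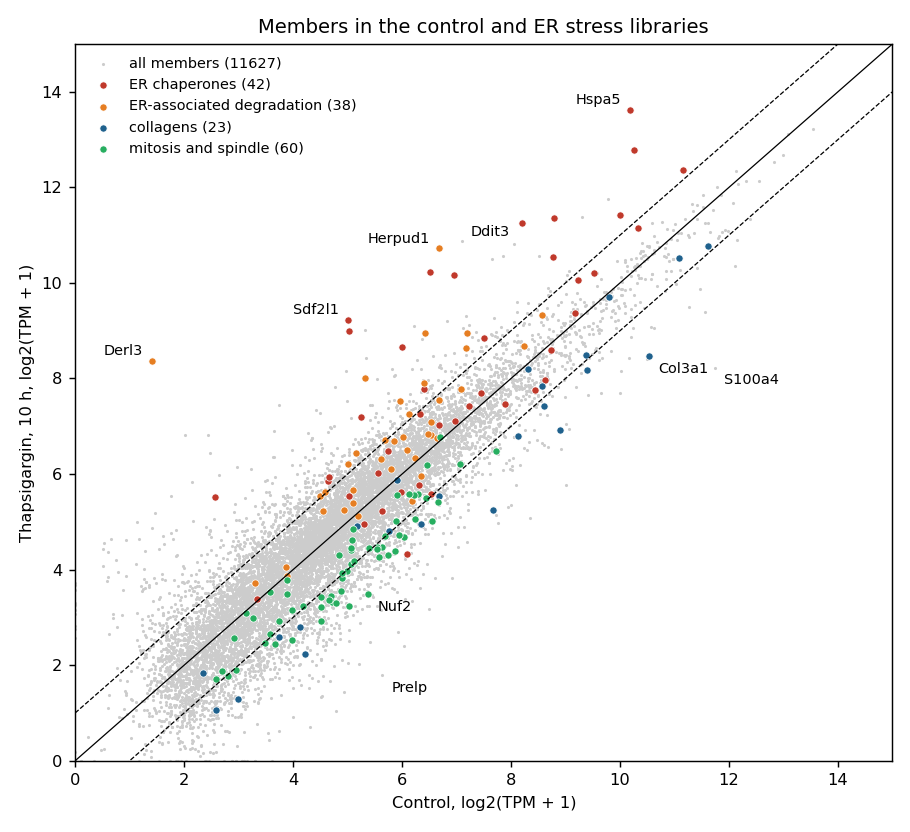
Each point is a member, with log2(TPM + 1) in the control library on the x axis and in the thapsigargin library on the y axis. The solid line marks equal values and the dashed lines 2-fold. Above the upper line lie 18 of 42 ER chaperones, up to Hspa5 at 12611 TPM, and 14 of 38 degradation genes, and 13 of 23 collagens and 29 of 60 mitosis genes lie below the lower line.

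The promoter sequences of the members are shown first, since they group the genes that rose by a feature that the expression values did not choose. RefSeq windows of GRCm38.p6, from 250 bases before to 50 bases after a start site, were matched to 9167 of 11547 member symbols, of which 7.09% rose and 9.40% fell. The ER stress response element (ERSE) is CCAAT, 9 bases and CCACG, the sequence bound by ATF6 together with NF-Y. It was searched on both strands and stood in the windows of 37 of 27025 genes (0.137%). Of the 17 members with it, 12 (70.6%) rose and none fell. The 12 were Derl3, Creld2, Hspa5, Ero1lb, Syvn1, Dnajc3, Hsp90b1, Zfp57, Alg12, Pdia6, Xlr3b and Calr, and of these 10 encode proteins of ER folding, degradation or glycosylation. The lines give the ERSE with 10 bases on each side, 5′ to 3′ on the strand of the gene, with its fixed letters in capitals. CGTGG and ATTGG in capitals are the same element read on the other strand.
Derl3, chr10:75893232-75893270, plus strand: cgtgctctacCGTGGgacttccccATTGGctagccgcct
Creld2, chr15:88819510-88819548, plus strand: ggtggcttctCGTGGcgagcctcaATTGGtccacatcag
Alg12, chr15:88819510-88819548, minus strand: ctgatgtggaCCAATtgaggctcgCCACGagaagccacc
Hspa5, chr2:34772015-34772053, plus strand: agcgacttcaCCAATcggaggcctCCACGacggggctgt
Ero1lb, chr13:12565672-12565710, plus strand: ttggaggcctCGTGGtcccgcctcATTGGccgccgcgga
Syvn1, chr19:6046522-6046560, plus strand: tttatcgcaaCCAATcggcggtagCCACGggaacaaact
Dnajc3, chr14:118937817-118937855, plus strand: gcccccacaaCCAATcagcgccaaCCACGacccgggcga
Hsp90b1, chr10:86705628-86705666, minus strand: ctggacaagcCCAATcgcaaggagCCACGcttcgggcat
Hsp90b1, chr10:86705523-86705561, minus strand: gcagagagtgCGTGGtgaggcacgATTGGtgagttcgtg
Zfp57, chr17:37002482-37002520, plus strand: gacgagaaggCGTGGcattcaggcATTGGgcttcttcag
Pdia6, chr12:17266481-17266519, plus strand: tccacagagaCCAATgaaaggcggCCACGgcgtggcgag
Xlr3b, chrX:73192020-73192058, plus strand: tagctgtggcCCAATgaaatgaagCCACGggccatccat
Calr, chr8:84847065-84847103, minus strand: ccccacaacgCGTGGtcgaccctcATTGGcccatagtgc
Canx, chr11:50325790-50325828, minus strand: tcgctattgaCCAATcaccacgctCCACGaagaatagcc
Pan2, chr10:128303277-128303315, plus strand: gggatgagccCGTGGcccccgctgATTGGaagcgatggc

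Creld2 and Alg12 lie head to head and share 1 element, read from opposite strands, and both rose, Creld2 from 90.4 to 1193 TPM and Alg12, a mannosyltransferase of N-glycan assembly, from 9.82 to 38.5 TPM. Hsp90b1 has 2 matches in its window. Zfp57 and Xlr3b, which are not genes of the ER, rose from 21.8 to 88.1 TPM and from 2.51 to 7.83 TPM. Canx (calnexin, change 0.82) and Pan2 (a deadenylase subunit, -0.08) are shown as members with an ERSE that did not pass 2-fold, which also holds for Hnrnpa3 (0.83), Adcy3 (-0.03) and Spats2l (-0.65). The whole Hspa5 window, chr2:34771840-34772139 on the plus strand, is given with its 1 exact ERSE in capitals, since Hspa5 is the most abundant gene that rose.
Hspa5 promoter: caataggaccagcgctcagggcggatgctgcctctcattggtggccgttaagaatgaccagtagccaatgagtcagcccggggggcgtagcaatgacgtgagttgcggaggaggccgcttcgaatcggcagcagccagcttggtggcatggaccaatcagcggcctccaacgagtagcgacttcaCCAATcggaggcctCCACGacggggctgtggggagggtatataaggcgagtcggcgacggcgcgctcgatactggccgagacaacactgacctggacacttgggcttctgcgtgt

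The C/EBP-ATF response element (CARE), TGATGNAA, is the site of ATF4 paired with a C/EBP factor. It stood in 4.51% of all genes' windows and in those of 238 members, of which 44 (18.5%) rose and 28 (11.8%) fell. The sites of genes of the integrated stress response (chosen after their values were seen) are shown with 10 bases on each side and the element in capitals, on the strand of the gene. TTGCATCA and TTACATCA are the element read on the other strand.
Atf3, chr1:191183426-191183453, minus strand: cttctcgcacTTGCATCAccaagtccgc
Herpud1, chr8:94386307-94386334, plus strand: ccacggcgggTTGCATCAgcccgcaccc
Chac1, chr2:119351039-119351066, plus strand: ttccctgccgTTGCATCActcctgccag
Trib3, chr2:152344029-152344056, minus strand: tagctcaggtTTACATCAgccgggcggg
Slc7a11, chr3:50443662-50443689, minus strand: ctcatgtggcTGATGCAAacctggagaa

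In the share that rose, the other motifs stood closer to the background than the ERSE and CARE. The unfolded protein response element of XBP1 (UPRE, TGACGTGG, which contains CCACG on its other strand) was held by 98 members, of which 11 (11.2%) rose and none fell. CCACG alone, the end of the ERSE, stood in 35.5% of all windows, and of the 4935 members with it 7.78% rose and 7.78% fell. CCAAT alone, the box of NF-Y, stood in 41.1% of windows, with 8.11% of 3985 members up and 10.0% down. The cyclic AMP response element TGACGTCA (2.03% of windows) had 8.41% of 345 members up and 5.51% down. Of the sites known from cell cycle genes, the CHR element TTTGAA (20.2% of windows) had 13.7% of 1292 members down and 7.43% up, and the E2F site TTTCGCGC (0.374% of windows) 8 of 74 members down and 2 up. All were searched on both strands. A match says only that these letters stand in the window, and genes are not replicates.

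**Figure D2:**
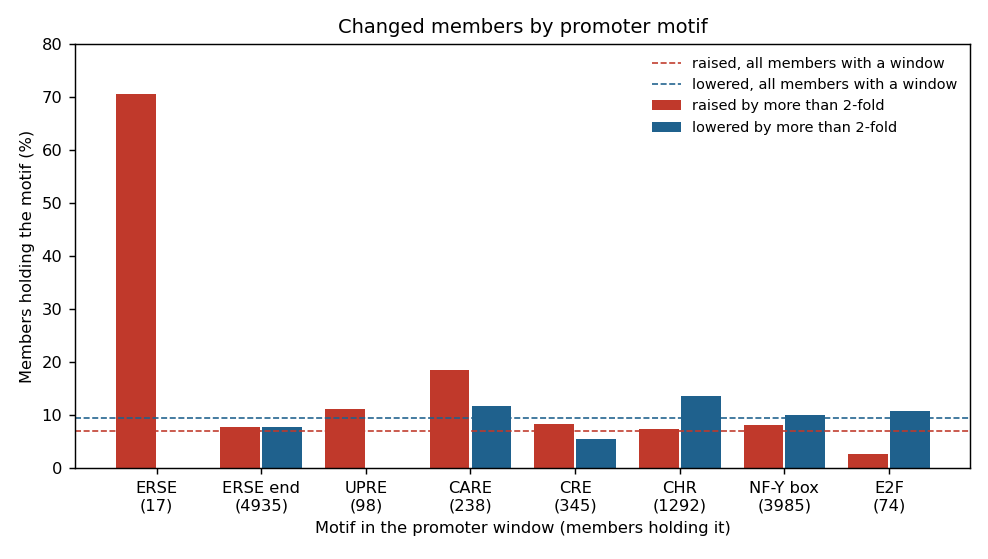
Bars give the percentage of members holding each motif in the promoter window that rose (red) or fell (blue) by more than 2-fold, with the number of members under each name, and dashed lines give 7.09% and 9.40% for all members with a window. The ERSE bar, at 70.6% of 17 members, stands highest, followed by CARE at 18.5% of 238.

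Genes of the ER rose more often than the members at large. Of 42 ER chaperones and folding enzymes, 18 (42.9%, against 7.28% of all members) rose and 1 fell, with a median change of 0.82, and their summed TPM went from 1.34% to 4.66% of the library. Hspa5 alone went from 0.116% to 1.26%. In the order control, glucose depletion, glutamine depletion, osmotic stress, oxidative stress and hypoxia, the summed TPM was 13413, 16294, 11269, 13022, 10474 and 14679, and it was 46578 under thapsigargin. It was thus more than 2-fold above every other library, among which glucose depletion was the highest.

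The largest rises among the chaperones after Sdf2l1 (change 4.22) were those of Dnajb9, Creld2, Hspa5, Hyou1 and Pdia4. Dnajb9, a J-domain partner of BiP (chromosome 12, 44205559 to 44210326), went from 31.4 to 512 TPM and was at 23.0 to 72.2 TPM in the other stress libraries. Hyou1, an exchange factor for BiP, went from 123 to 1140 TPM, and Hsp90b1, the ER member of the HSP90 family, from 1228 to 7025 TPM. Of the lectin chaperones, Calr (calreticulin) went from 2293 to 5242 TPM, while Canx stayed within 2-fold. Not every enzyme of the list followed. Cnpy4, a factor for Toll-like receptors, fell from 66.8 to 19.1 TPM, and the ER prolyl isomerases Fkbp7, Fkbp9 and Fkbp10 had changes of -0.94, -0.69 and -0.66. For Cnpy4 the other stress libraries lay between 51.2 and 66.2 TPM.

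Genes that remove misfolded protein from the ER (ER-associated degradation) included the largest rise of any named member. Of 38, 14 (36.8%) rose and none fell, with a median of 0.70. Derl3, a derlin of the retrotranslocation channel (chromosome 10, 75893413 to 75895941), went from 1.65 to 331 TPM, a change of 6.97. It was at 3.64 (glucose depletion), 0.372 (glutamine depletion), 3.06 (osmotic stress), 0.300 (oxidative stress) and 1.52 TPM (hypoxia), so that the ER stress library was the only one of the 7 above 4 TPM. Herpud1, a scaffold of the ubiquitin ligase complex (chromosome 8, 94386438 to 94395377), went from 102 to 1698 TPM and lay between 68.2 and 130 TPM elsewhere. Syvn1, the ligase HRD1, went from 39.1 to 258 TPM, and its partner Sel1l from 85.2 to 497 TPM. Erlin2 (-0.75) and Erlec1 (-0.39) were the lowest of the list and did not pass 2-fold, and Derl2 (0.85) lay under it as well.

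Of 24 genes of translocation and signal peptide cleavage, 10 (41.7%) rose and none fell, with a median of 0.82, and the largest change was 1.31 for Spcs2, a signal peptidase subunit. Srp54a and Srp54b both rose, but these near-identical genes share reads and their split is uncertain. In the 50 genes of COPII and ER-Golgi transport, 9 (18.0%) rose and none fell, with a median of 0.43. They were led by Nucb2, a calcium-binding Golgi protein, from 80.4 to 295 TPM, and Sec23b, a COPII coat subunit, from 52.7 to 166 TPM, while the other coat subunit Sec23a changed by 0.31. Of 41 genes of N-glycosylation and hexosamine synthesis, 10 (24.4%) rose and none fell, led by Gnpnat1, an acetyltransferase of the hexosamine pathway, from 24.6 to 125 TPM, and Slc35b1, a nucleotide transporter of the ER, from 71.3 to 292 TPM. Tusc3, an oligosaccharyltransferase subunit, was lowest at -0.65, whereas its counterpart Magt1 stood at 1.00, just short of the 2-fold limit.

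Of 14 sensors and ER transcription factors, 7 rose and none fell. Atf6 went from 19.5 to 91.2 TPM and its relative Atf6b changed by -0.02. Ern1 (IRE1) went from 6.33 to 21.4 TPM, Eif2ak3 (PERK) from 23.0 to 47.9 TPM, and Xbp1 from 106 to 239 TPM. Wfs1, a regulator of ATF6, went from 21.8 to 98.2 TPM. The protease Mbtps2, which makes the last cut of ATF6, rose (1.13), and Mbtps1, which makes the first, did not (-0.27). Creb3l2 and Creb3l1, related membrane-bound factors of secretory cells, changed by 1.06 and -0.39. Spliced and unspliced Xbp1 cannot be told apart in gene totals.

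Transcripts that other studies report as cut by IRE1 were lower. Of 10 such genes, 5 fell and none rose, with a median of -0.99, against 9.97% of all members that fell. Scara3, a scavenger receptor (chromosome 14, 65919394 to 65953935), went from 29.5 to 1.70 TPM and stood between 23.4 and 28.3 TPM in the other stress libraries. Bloc1s1, a subunit of a lysosome-positioning complex, went from 115 to 36.7 TPM and stood between 101 and 122 TPM elsewhere. Pmp22 and Col6a1 fell as well, with changes of -1.96 and -1.97, while Rtn4 (-0.26) and Pdk2 (-0.27) did not pass 2-fold. Col6a1 is also a collagen, a class whose levels are given further on.

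Genes of the PERK and ATF4 arm rose more often in mRNA than the members at large, and PERK activity was not measured. Of 25 factors and feedback genes of the integrated stress response, 9 (36.0%) rose and 1 fell. Atf4 itself went from 276 to 773 TPM, and was at 260 to 478 TPM in the other stress libraries. Atf3, a repressing factor downstream of ATF4 (chromosome 1, 191170296 to 191218039), went from 3.02 to 112 TPM, but was also at 88.3 TPM in oxidative stress, 21.3 TPM in glutamine depletion and 13.2 TPM in osmotic stress. For Atf3 the ER stress library was thus the highest by a small margin over oxidative stress. Ppp1r15a (GADD34), which directs dephosphorylation of eIF2α, went from 38.8 to 514 TPM, with 154 TPM in osmotic stress the next highest. Its constitutive relative Ppp1r15b changed by 0.53. Trib3, a feedback inhibitor of CHOP, went from 30.8 to 184 TPM, and the translation repressor Eif4ebp1 from 207 to 476 TPM. Cebpb (0.17) and Atf5 (0.31) did not pass 2-fold, and Eif2ak2 (the RNA-activated kinase PKR) fell by 1.04 on the log2 scale.

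Among 28 other targets of ATF4 and CHOP, 16 (57.1%) rose and none fell, with a median of 1.22, the highest of the 45 lists. Car6, a carbonic anhydrase, went from 4.45 to 113 TPM, and Chac1, which degrades glutathione, from 26.2 to 224 TPM. Chac1 was at 86.8 TPM in glutamine depletion and 69.7 TPM in oxidative stress. Gadd45a, a growth arrest gene, went from 30.3 to 286 TPM, and Sqstm1, an autophagy receptor, from 365 to 1507 TPM. Targets tied to cell death stayed within 2-fold, namely Bbc3 (0.45), Pmaip1 (0.06), Tnfrsf10b (-0.10) and Bcl2l11 (-0.59). Of 24 members of the BCL2 family, caspases and death receptors, none rose and 3 (12.5%) fell, against 7.28% and 9.97% of all members. Those that fell were Fas (23.2 to 4.40 TPM), Bok (27.7 to 5.90 TPM) and Casp12 (21.1 to 5.33 TPM). For Fas, the other stress libraries lay between 12.4 and 20.2 TPM.

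Enzymes, transporters and tRNA synthetases of amino acid supply included many genes that rose. Of 23 enzymes of amino acid synthesis and folate metabolism, 13 (56.5%) rose and 1 fell, with a median of 1.08. Cth, which makes cysteine, went from 11.5 to 118 TPM and lay between 8.84 and 14.2 TPM in the other stress libraries. Psph, the last enzyme of serine synthesis, went from 41.4 to 173 TPM, and Asns (asparagine synthetase) from 141 to 317 TPM. Aldh1l1, the cytosolic 10-formyltetrahydrofolate dehydrogenase, fell from 6.92 to 0.890 TPM while its mitochondrial counterpart Aldh1l2 rose from 42.9 to 173 TPM. Of 21 amino acid transporters, 11 (52.4%) rose and 4 (19.0%) fell. Slc3a2, the heavy chain of several exchangers, went from 201 to 1454 TPM and its light chains Slc7a5 from 76.6 to 332 TPM and Slc7a11 from 2.60 to 18.5 TPM. Slc7a3, an arginine and lysine carrier, went from 6.84 to 69.5 TPM. The 4 that fell were Slc38a4, Slc6a6 (the taurine carrier), Slc1a3 and Slc43a2, with changes from -1.47 to -1.13.

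Of 23 aminoacyl-tRNA synthetases and their cofactors, 9 (39.1%) rose and none fell, with a median of 0.77. Wars, for tryptophan, went from 55.5 to 292 TPM and lay between 48.1 and 61.7 TPM in the other stress libraries. Lars (1.44), Rars (1.31) and Nars (1.28) followed. Mars, for methionine, stood against the rest at 78.4 and 43.5 TPM, a change of -0.84 that did not pass 2-fold.

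Ribosome assembly genes rose more often than the members at large. Of 32 ribosome biogenesis genes, 12 (37.5%) rose and none fell, with a median of 0.90. Heatr1, a factor of pre-ribosomal RNA processing, went from 14.5 to 44.9 TPM, and Ncl (nucleolin) from 410 to 950 TPM. All changes in this list were small, since at a limit of 3-fold none of the 32 rose. The 79 cytosolic ribosomal protein genes took 10.2% of the control and 10.4% of the ER stress library, with a median change of 0.04. Rpl12 (52.8 to 207 TPM) and Rpl37a (1208 to 535 TPM) passed 2-fold in opposite directions, and both belong to a family with many processed copies that share reads. Myc, a factor that drives ribosome assembly, went from 56.8 to 265 TPM, with 144 TPM in glutamine depletion the next highest.

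**Figure D3:**
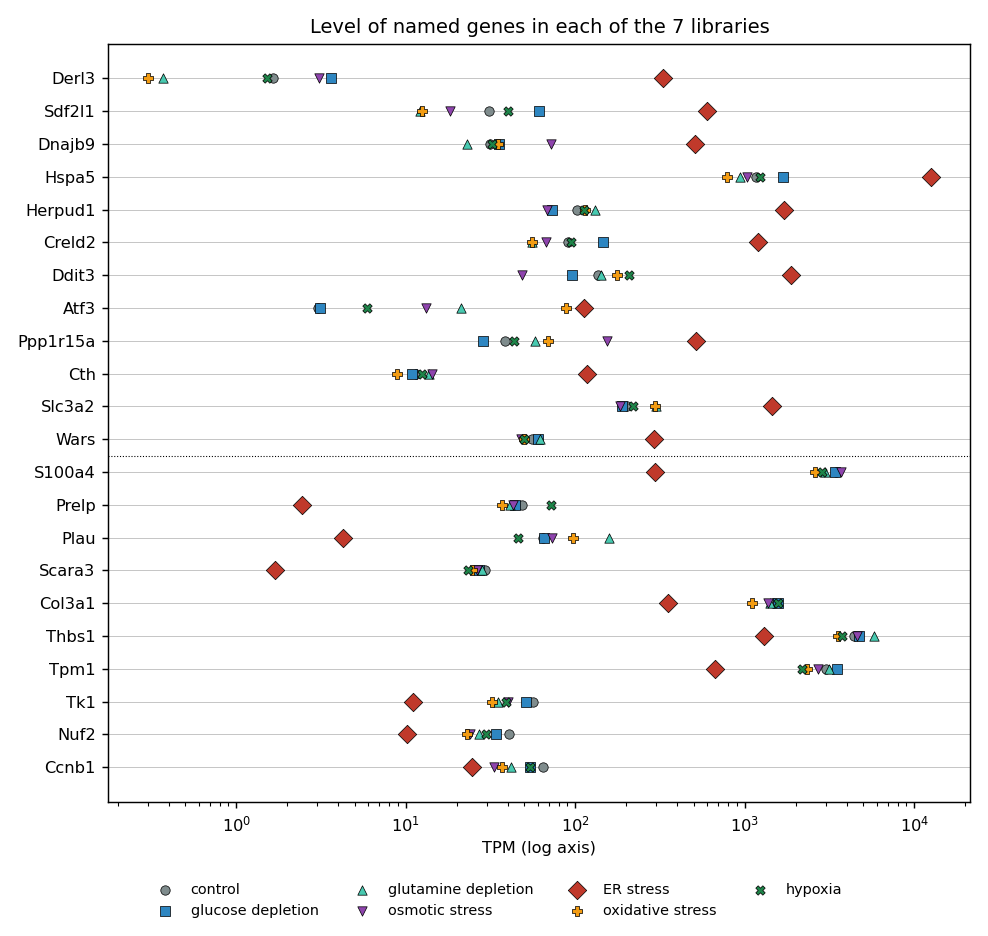
TPM on a log axis of 22 named genes in the 7 libraries, with the ER stress library as the large diamond. In the upper 12 genes it lies to the right of the other libraries, from Atf3 at 112 TPM to Hspa5 at 12611 TPM. Oxidative stress is close to it only for Atf3 among these. In the lower 10 genes it lies to the left, with the smallest distance for Ccnb1.

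Calcium pumps, channels and store sensors changed about as often as members at large. Of 21 such genes, 2 (9.52%) rose and 2 (9.52%) fell, against 7.28% and 9.97% of all members. Atp2a2, which encodes SERCA2, the pump that thapsigargin blocks, went from 149 to 555 TPM and lay between 121 and 174 TPM in the other stress libraries. Saraf, which limits store-operated entry, went from 100.3 to 249 TPM. Stim2, a sensor of store calcium, fell from 18.8 to 6.51 TPM, and Stim1 changed by -0.77. The plasma membrane pump Atp2b4 fell by 1.35 on the log2 scale. Of 13 genes of the calcineurin and NFAT pathway 2 (15.4%) rose and 4 (30.8%) fell, both above the shares of all members. Rcan1, a calcineurin inhibitor and NFAT target, went from 39.2 to 345 TPM, and was at 191 TPM in oxidative stress. Nr4a1 fell from 22.3 to 4.28 TPM while the related immediate early gene Nr4a2 rose from 4.84 to 32.2 TPM.

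Collagens fell more often than the members at large. Of 23 collagens, 13 (56.5%, against 9.97% of all members) fell and none rose, with a median of -1.16, the lowest of the 45 lists. In 21 of them the ER stress value was below that of every other library, which held for 25.1% of all members. Summed collagen TPM was 11459 in the control, 6208 under thapsigargin and 11051 to 12960 in the other stress libraries. Col3a1, a fibrillar collagen (chromosome 1, 45311538 to 45349706), went from 1479 to 352 TPM and stood between 1098 and 1583 TPM elsewhere. Col8a1, a short-chain collagen, went from 202 to 36.9 TPM. The chains of the main fibrillar collagen did not pass 2-fold, Col1a1 with a change of -0.86 (3154 to 1740 TPM) and Col1a2 with -0.57. Col12a1, Col5a2 and Col18a1 lay closest to the control, at -0.11, -0.09 and -0.03.

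Of 41 matrix glycoproteins and proteoglycans, 16 fell and none rose, with a median of -0.82. Prelp, a small leucine-rich proteoglycan (chromosome 1, 133910304 to 133921414), went from 48.7 to 2.45 TPM and lay between 37.1 and 72.3 TPM in the other stress libraries. Dpt (dermatopontin) went from 10.7 to 0.350 TPM, and Mfap2, a microfibril protein, from 96.5 to 13.1 TPM. Thbs1 (thrombospondin 1), the most abundant of the list, went from 4422 to 1305 TPM. Fn1 (fibronectin) was within 2-fold, at 2742 and 2600 TPM, as were Vcan (0.08) and Tnc (0.16).

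Of 20 metalloproteinases, plasminogen regulators and inhibitors, 10 fell and 1 rose. Plau (urokinase) went from 64.3 to 4.29 TPM although it was at 159 TPM in glutamine depletion and 96.5 TPM in oxidative stress. Plat, the tissue activator, and the inhibitor Timp3 fell, with changes of -2.28 and -2.11. Mmp13, a collagenase, rose from 2.32 to 10.5 TPM, but was at 9.54 TPM in osmotic stress. Among 27 genes of collagen processing 5 (18.5%) fell and 2 (7.41%) rose. P3h4, a partner of lysyl hydroxylase, went from 246 to 38.8 TPM, and the crosslinking enzymes Loxl3 and Loxl1 fell, with changes of -1.81 and -1.48. The genes that rose were P3h2, a prolyl hydroxylase of basement membrane collagen (2.02 to 14.1 TPM), and Mia3 (TANGO1), which loads collagen into COPII carriers (244 to 520 TPM). Serpinh1 (HSP47), the collagen chaperone, changed by 0.51.

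Some contractile and adhesion genes fell too. Of 29 genes of the contractile actin cytoskeleton, 9 (31.0%) fell and none rose, and their summed TPM went from 3.57% to 1.88% of the library. Tpm1 (tropomyosin) went from 3034 to 672 TPM and lay between 2190 and 3496 TPM in the other stress libraries. Myl9, the regulatory myosin light chain, went from 1020 to 205 TPM, and Actb, the most abundant of the list, from 4508 to 1901 TPM. Acta2 (-0.89) and Vim (-0.86) did not pass 2-fold. Of 14 integrin subunits, Itgav, Itga5 and Itga11 fell, with changes from -1.23 to -1.18, and Itga2 rose from 0.702 to 6.0 TPM. In 18 TGF-β response genes 6 (33.3%, against 9.97% of all members) fell and none rose, led by the transcription factors Snai1 (-1.49) and Id1 (-1.47). In 18 targets of YAP1 none fell and 1 (5.56%, against 7.28% of all members) rose, Nt5e, from 7.79 to 33.0 TPM.

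Of 28 fibroblast surface and identity genes, 5 (17.9%) fell and 1 (Nt5e) rose. S100a4, a calcium-binding protein often used to mark fibroblasts (chromosome 3, 90603771 to 90606045), went from 3444 to 296 TPM. It was at 3428, 2983, 3685, 2585 and 2867 TPM in glucose depletion, glutamine depletion, osmotic stress, oxidative stress and hypoxia. Ly6a (SCA-1) fell from 483 to 90.5 TPM. Factors of mesenchymal identity stayed within 2-fold, such as Twist1 (-0.29), Prrx1 (-0.85) and Tbx15 (0.07), but Prrx2 fell from 301 to 92.3 TPM. Other fibroblast genes among the 15 largest falls were Cd248 (endosialin), from 325 to 33.0 TPM, Lrrc15, from 22.1 to 1.58 TPM, and Htra3, a secreted protease, from 22.0 to 1.51 TPM.

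**Figure D4:**
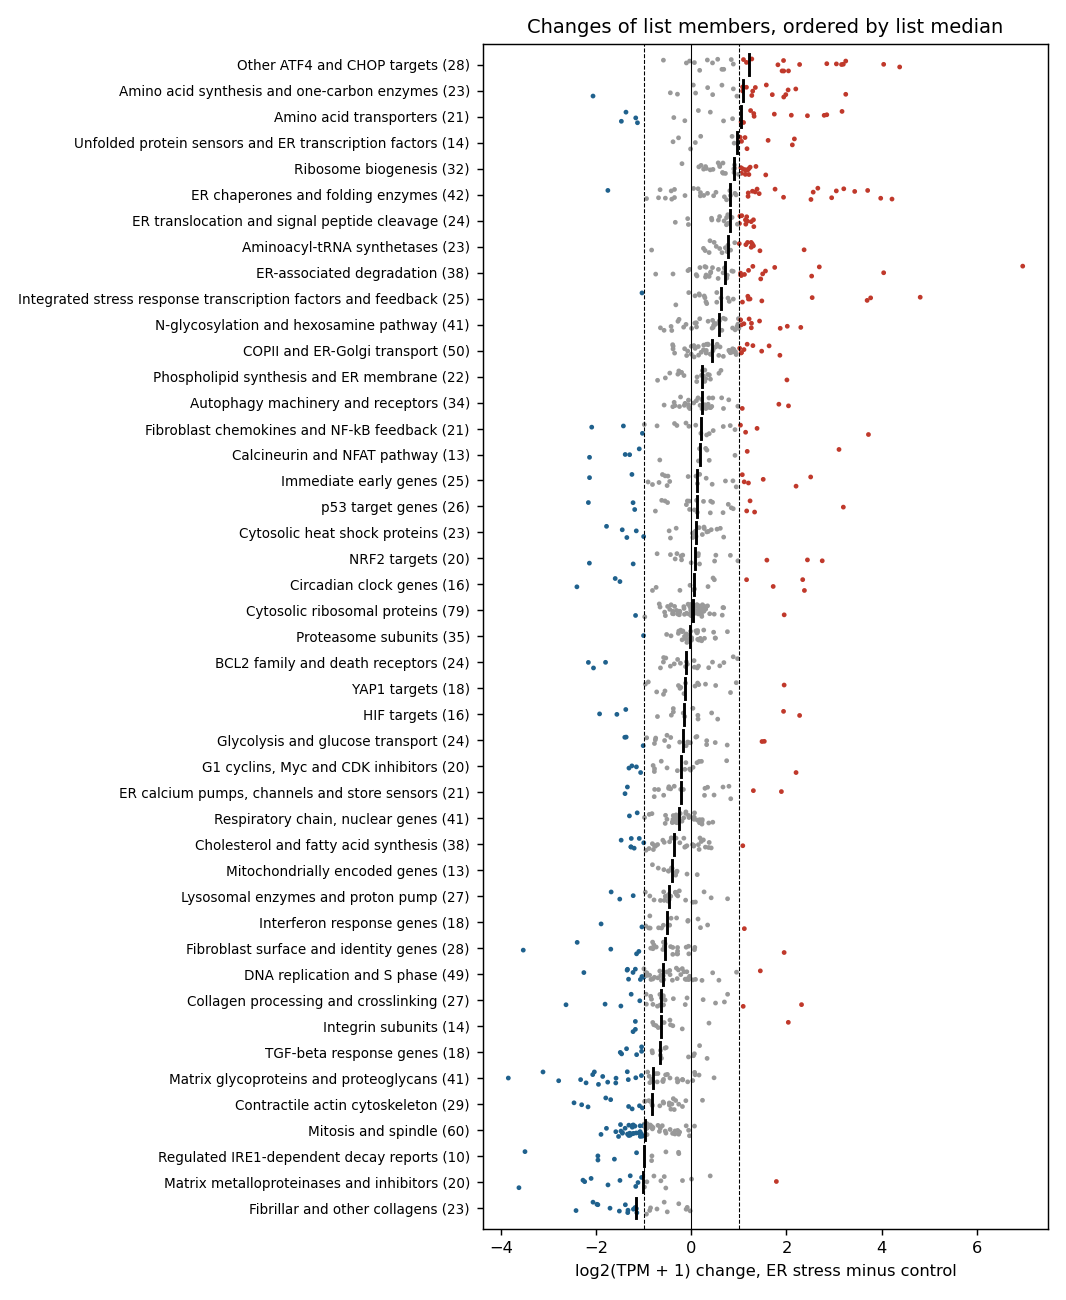
Each point is a member of a gene list, with its log2(TPM + 1) change on the x axis, red past 2-fold up, blue past 2-fold down and grey between, and a black bar at the list's median. Lists are ordered by median, with the number of members in brackets, from ATF4 and CHOP targets at 1.22 to collagens at -1.16. A gene may stand in more than 1 list.

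Cell cycle genes were lower. Of 60 genes of mitosis and the spindle, 29 (48.3%) fell and none rose, with a median of -0.98. Nuf2, a kinetochore protein (chromosome 1, 169497934 to 169531464), went from 40.7 to 10.2 TPM, and lay between 23.0 and 33.9 TPM in the other stress libraries. Ccnb1 (cyclin B1) was at 64.3 in the control, 54.5 in glucose depletion, 41.6 in glutamine depletion, 33.3 in osmotic stress, 36.9 in oxidative stress, 54.3 in hypoxia and 24.8 TPM under thapsigargin. The ER stress library was the lowest in 36 of the 60 genes, and in 25.1% of all members. Only 1 of the 60 lay more than 2-fold below every other library. Against the control, 13 of the 60 fell in oxidative stress, 9 in osmotic stress and none in glucose depletion, glutamine depletion or hypoxia. Under thapsigargin 29 fell against the glucose depletion library as well. Against the median of the other 6 libraries in place of the control, 14 of the 60 fell, and with a pseudocount of 5 TPM 19 fell.

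Of 49 genes of DNA replication, 10 (20.4%) fell and 1 rose, with a median of -0.59. Tk1 (thymidine kinase) went from 56.6 to 11 TPM, Ccne1 (cyclin E1) from 60.9 to 23.3 TPM, and Pold2, a subunit of DNA polymerase δ, rose from 31.4 to 87.7 TPM. Against the median of the other libraries 5 fell, and with a pseudocount of 5 TPM 4 fell. The licensing genes Mcm2 (-0.11), Mcm7 (0.09), Cdt1 (0.58) and Cdc6 (0.95) did not pass 2-fold. Cdkn1a (p21) changed by -0.04, and of 20 genes of G1 control 4 fell, among them Ccnd3 (cyclin D3, -1.16), and only Myc rose. Of 26 p53 targets 4 (15.4%) rose and 3 (11.5%) fell, against 7.28% and 9.97% of all members.

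**Figure D5:**
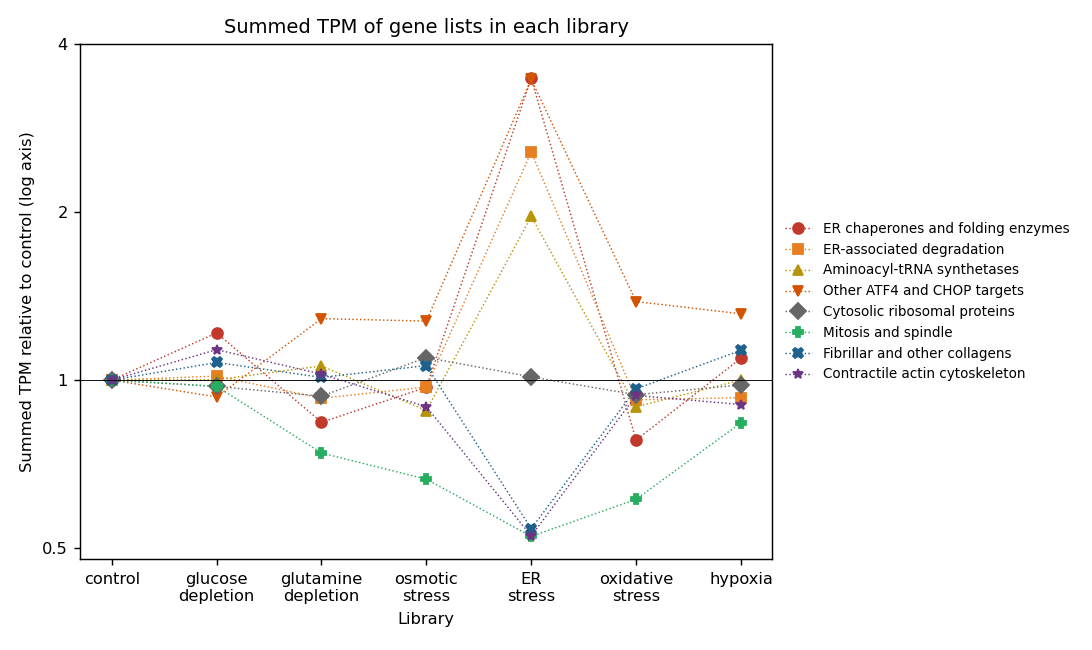
Summed TPM of 8 gene lists in each library relative to the control library, on a log axis, with dotted lines joining the points of a list. ER chaperones, degradation genes, tRNA synthetases and ATF4 targets peak in the ER stress library, collagens and contractile genes are lowest there, ribosomal proteins stay level, and mitosis genes are also low in osmotic and oxidative stress.

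In metabolic and other stress lists most genes stayed within 2-fold, as did 9622 of all 11627 members. Of 38 genes of cholesterol and fatty acid synthesis, 7 (18.4%, against 9.97% of all members) fell and 1 rose (Mvd). Those that fell included Hsd17b7 (-1.48) and Dhcr7 (-1.27), enzymes of cholesterol synthesis. Against the control, 7 of the 38 fell in glutamine depletion as well. The list's median was -0.37 under thapsigargin, -0.64 in glutamine depletion, -0.61 in glucose depletion and -0.43 in hypoxia. It was 0.17 in osmotic and 0.38 in oxidative stress. Chka (choline kinase) was the only one of 22 phospholipid and ER membrane genes past 2-fold, from 18.5 to 77.7 TPM. Of 20 NRF2 targets 3 (15.0%, against 7.28% of all members) rose and 2 (10.0%) fell, Gstm1 (-2.14) and Gsta4 (-1.22). Hmox1 (heme oxygenase 1) rose from 267 to 1802 TPM, against 6055 TPM in oxidative stress. Of 23 cytosolic heat shock proteins none rose and 5 (21.7%) fell, led by Cryab, a small heat shock protein, from 231 to 66.4 TPM. Hspa1a and Hspa1b, which share reads, were among these, and Hsp90aa1 and Hsp90ab1 changed by 0.03 and 0.02. Proteasome subunits had a median of -0.03, with 1 of 35 past 2-fold (Psme1, -1.01). Autophagy genes had 3 of 34 (8.82%) up, with Atg13 from 13.6 to 51.1 TPM, and lysosomal genes 3 of 27 (11.1%) down, with Lgmn from 116 to 35.5 TPM. Both shares were close to those of all members, 7.28% and 9.97%.

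The 41 nuclear genes of the respiratory chain had a median of -0.26 and 2 fell. The 13 mitochondrially encoded genes had a median of -0.40 and none passed 2-fold. Of 24 glycolysis and glucose transport genes 2 (8.33%) rose and 3 (12.5%) fell, against 7.28% and 9.97% of all members. Hk2 (hexokinase, from 16.2 to 48.9 TPM) and the lactate carrier Slc16a1 rose, and Ldhb, Pfkm and Tpi1 fell. Of 16 HIF targets 2 (12.5%) rose and 3 (18.8%) fell. Ndrg1 and Ero1l, which rose by 2.28 and 1.94, are also on the ATF4 list, whereas Car9, a carbonic anhydrase, fell from 6.38 to 0.935 TPM.

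Of the 21 chemokine and NF-κB genes 4 (19.0%) rose and 3 (14.3%) fell, against 7.28% and 9.97% of all members. Ccl20 went from 1.75 to 35.3 TPM, with 10.2 TPM in glutamine depletion the next highest, and Cxcl12, a chemokine made by stromal cells, fell from 407 to 94.4 TPM against 262 to 410 TPM in the other stress libraries. Ccl2 (0.38) and Cxcl1 (0.20) did not pass 2-fold. Of 18 interferon response genes 1 (5.56%) rose, Isg15 (1.11), and 2 (11.1%) fell, Irf1 (-1.90) and Ifitm2 (-1.04). Of 25 immediate early genes 6 (24.0%) rose and 2 (8.0%) fell, while Fos (-0.91) and Jun (-0.82) stayed within 2-fold. Against the control, 16 of the 25 rose in glutamine depletion, 14 in oxidative stress, 8 in osmotic stress, 2 in glucose depletion and 1 in hypoxia. Of 16 circadian clock genes 4 (25.0%) rose and 3 (18.8%) fell. Nfil3 and Ciart, both repressors, went from 19.1 to 104 TPM and from 4.56 to 27.2 TPM, and Cry1 rose by 1.72. The output factors Dbp and Tef, which act on the same sites as NFIL3, fell, from 12.7 to 1.58 TPM and from 32.4 to 10.8 TPM, as did the repressor Nr1d1, from 16.1 to 4.63 TPM.

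Several of the largest changes belong to no list. Prr32 went from 0.442 to 22.5 TPM, Slc2a6, a hexose transporter of lysosomes, from 4.53 to 85.7 TPM, Hid1, a factor of dense core vesicle formation, from 2.40 to 45.9 TPM, and Cyp1a1, a target of the aryl hydrocarbon receptor, from 1.21 to 30.8 TPM. Each of these was at no more than 4.42 TPM in the other stress libraries. RMST_1, a row for a noncoding RNA, went from 0.422 to 20.7 TPM. Among the falls were Arsi, a sulfatase, from 26.7 to 1.05 TPM, Nrep from 18.7 to 0.643 TPM, Pbxip1 from 89.1 to 8.04 TPM, Fst (follistatin) from 59.8 to 5.47 TPM, St3gal5, which makes the ganglioside GM3, from 35.9 to 3.06 TPM, and Omd, a matrix proteoglycan, from 12.3 to 0.536 TPM. The small Y RNAs passed the rule for the 15 largest changes in both directions. Rny1 was at 15.1 TPM in the control and listed at 0 under thapsigargin and in 3 other libraries, and Rny3 was listed at 0 in 5 libraries and stood at 12.2 TPM under thapsigargin and 30.1 TPM in hypoxia.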

How the data were processed

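RNA-seq (poly(A)-selected stranded libraries, paired-end reads) was made by the authors from 7 MEF cultures, 1 per condition. Per the submitters' processing notes and the study's methods, kallisto 0.43.1 quantified reads against transcripts of GRCm38 (Ensembl release 90). The authors deposited TPM per gene, which sum to 1000000 in each library and hold no counts, so no depth, counting interval or test was possible.

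From the deposited TPM, log2(TPM + 1) changes were computed with Python 3.11.15, numpy 2.4.6 and pandas 2.3.3. The 2-fold rule and the addition of 1 TPM follow the study's methods, and the filter is a mean of 2 TPM. The symbol rule left out 1282 genes past the filter, of which 130 are protein-coding. Of the members, 160 rows carried a repeated symbol, 69 symbols stood on rows with identical values, and 18 symbols had become dates. Rows were counted singly, and each list symbol once. GENCODE M21 (GRCm38) matched 11503 members, of which 11170 are protein-coding, and gave locations. Promoter windows are those of RefSeq (GRCm38.p6), with 259 genes matched through an older symbol. Protein sequences were not analysed here.

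Members and the 45 gene lists were chosen with earlier results of these data known. Named are the markers and the 15 largest rises and falls with at least 10 TPM in 1 of both libraries and no clone name. From the lists, the largest changes (up to 6 each way), the most abundant member, members against the rest and genes near 2-fold could be named. Further sensors and integrated stress response factors are named, but neither of these lists in full. Members within 2-fold that are named for contrast, genes with printed promoters and Ccnb1, Psph, Asns, Sqstm1 and Slc7a11 were singled out with their values in view. Scripts were tested on simulated data.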

Additional observations from a re-analysis of the deposited data

How the results depend on the processing

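No paired analysis was possible because each condition had 1 library, and no library could be left out. The values therefore carry no error, and no change, of whatever size, can be set against the variation between cultures. The 13 alternatives changed 1 setting each. The 31 genes named as markers or by size kept their direction and stayed past 2-fold under the 7 alternatives that recompute their change. Of 880 other list counts, 741 stayed within 1.5 times the reported value and 139, mostly of few genes, did not.

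Genes that rose numbered 545 with a pseudocount of 5 TPM, 2113 at 1.5-fold and 248 at 3-fold, and genes that fell 581, 2371 and 348, with 750 at a mean of at least 10 TPM. Genes in which the ER stress library lay past every other numbered 1079 above and 992 below at 1.5-fold, 108 and 107 at 3-fold, and 200 below with 5 TPM. At 1.5-fold 16 tRNA synthetases and 23 ribosome biogenesis genes rose, and 27 matrix glycoproteins, 17 contractile, 25 replication and 47 mitosis genes fell. At 3-fold 5 degradation genes, 1 synthetase, 6 enzymes of amino acid synthesis and 0 ribosome biogenesis genes rose, and 5 collagens, 5 contractile, 1 replication and 3 mitosis genes fell. With 5 TPM, 4 replication and 19 mitosis genes fell. Against the median of the other 6 libraries 5 and 14 did, and against glucose depletion 14 contractile genes did. The cause was not tested. Centring, scaling without mitochondrial or the 100 most abundant genes, a pseudocount of 0.1 TPM, no filter, counting symbols once and protein-coding genes alone moved none of these counts by over 1.5 times.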
